A study of Homo sapiens with 16 samples.

Results

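The response of LNCaP cells to loss of XBP1 was compared with their response to inhibition of IRE1α, gene by gene, as a difference of differences. LNCaP is an established human prostate cancer cell line of luminal type that carries the androgen receptor. In the knockdown experiment, cells received control siRNA (siCtrl) or XBP1 siRNA (siXBP1) and were cultured for 2 days. The inhibitor experiment set DMSO (Vehicle) against 10 µM of the IRE1α RNase inhibitor MKC8866, both given for 24 h. The cells of all 4 groups were then given 30 nM thapsigargin for 3 h, which causes endoplasmic reticulum (ER) stress, so no group is unstressed. Each group has 4 libraries, and all 16 libraries of the series enter the comparison, 8 from each experiment. The measure is the log2 fold change of siXBP1 against siCtrl minus the log2 fold change of MKC8866 against Vehicle, called the difference here, and a negative difference means a lower response after knockdown than with the inhibitor. The experiments have separate controls and pretreatment times, so the agent cannot be told apart from the experiment, and nothing in the labels says that libraries came from separate cultures, so p-values measure the spread between libraries.

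IRE1α is an ER stress sensor with a cytosolic RNase. Its best known substrate is the XBP1 mRNA, from which it removes a short intron, and the RTCB ligase joins the ends to give the mRNA of the transcription factor XBP1s. XBP1s drives genes for protein entry into the ER, folding, glycosylation, transport to the Golgi and ER-associated degradation. The same RNase also cleaves a set of other mRNAs, known as regulated IRE1-dependent decay (RIDD). XBP1 siRNA is directed at the XBP1 mRNA and leaves IRE1α in place, while an RNase inhibitor acts on splicing and on RIDD and leaves the unspliced XBP1 mRNA.

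Libraries held 28713607 to 34509488 counted fragments, and at this depth the spread between libraries, with a biological coefficient of variation of 5.18%, limits genes with many counts. All 9 luminal markers examined were expressed in every library, from 94.7 CPM (counts scaled to a common library size) for the lowest value of KLK2 upwards. Of 10 markers of other cells, HBB had no count in any library, PTPRC, COL1A2, PECAM1, CD3E and KRT5 had at most 3 counts in a library, ALB, KRT14 and TP63 had at most 37, and COL1A1 had 24.8 to 36.4 CPM. The summed level of these 10 markers was 26.4 to 34.3 CPM in siCtrl, 32.1 to 35.4 in siXBP1, 28.6 to 37.9 in Vehicle and 25.9 to 31.5 in MKC8866 libraries. One siCtrl library, replicate 4, had 2.76% of its fragments on mitochondrial genes, against 3.62% to 5.04% in the other libraries. Counts below that moved by over 1.5 times when 1 library was left out are followed by their value without it.

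Total XBP1 mRNA (ENSG00000100219, chr22:28794555-28800597, minus strand) was the largest negative difference named here. It was counted at 386, 422, 366 and 359 CPM in the siCtrl libraries and 51.2, 54.2, 54.2 and 53.2 CPM in the siXBP1 libraries. It was counted at 488, 539, 483 and 504 CPM in the Vehicle libraries and 583, 619, 576 and 537 CPM in the MKC8866 libraries. All siXBP1 values lay below all siCtrl values, while the Vehicle and MKC8866 values overlapped in range. The log2 fold change was -2.85 ± 0.0514 (SE, adjusted p = 5.00e-29) after knockdown and 0.20 ± 0.0462 (adjusted p = 0.00507) with MKC8866, a difference of -3.05 ± 0.0685 (SE, adjusted p = 5.04e-26). Spliced and unspliced XBP1 mRNA are counted together here.

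ERN1, the gene of IRE1α (ENSG00000178607, chr17:64039142-64130819, minus strand), moved in opposite directions. Its values were 163, 185, 172 and 177 CPM in siCtrl, 160.0, 153, 158 and 153 in siXBP1, 169.9, 159, 168 and 170.1 in Vehicle and 187, 188, 209.5 and 206 in MKC8866 libraries. ERN1 fell by 0.16 on the log2 scale after knockdown and rose by 0.24 with MKC8866, and the difference was -0.40 ± 0.0608 (SE, adjusted p = 3.86e-06). The 4 MKC8866 values lay above all Vehicle values, and the siXBP1 values below all siCtrl values. RTCB, the ligase that completes XBP1 splicing, had responses of -0.42 after knockdown and -0.06 with MKC8866, of which only the first was called, and a difference of -0.36 ± 0.0651 (SE, adjusted p = 7.18e-05). XBP1, ERN1 and RTCB were the called members among the 8 tested genes of the IRE1, XBP1 and tRNA ligase list (37.5%). All 8 have a mean of at least 10 CPM, and the share was near the 36.0% of all tested genes at that level. XBP1, among these 3, is itself the target of the siRNA. The other members of the list, DDX1, FAM98B, RTRAF, ZBTB8OS and TRPT1, had no called difference, while without MKC8866 replicate 1 a positive call was added.

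Across the 20357 genes tested, the difference passed the threshold, a Benjamini-Hochberg adjusted p below 0.05, in 4756, or 23.4% of genes. It was negative in 2597 (12.8%) and positive in 2159 (10.6%), with a median over all genes of 0.01. Among the 10259 genes with a mean of at least 10 CPM, 36.0% were called. Most members of the lists below are expressed at that level, so their shares are read against both figures. In the same fit, knockdown lowered 3955 genes (19.4%) and raised 3626 (17.8%), or 37.2% together, and MKC8866 lowered 653 (3.21%) and raised 297 (1.46%), or 4.67% together. The 297 became 502 without MKC8866 replicate 2 and 197 without Vehicle replicate 2.

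The called differences were mostly genes that responded to knockdown and had no called response to the inhibitor. There were 2178 such genes lower after knockdown, with a median log2 fold change of -0.37 after knockdown and 0.03 with MKC8866, and 1929 higher, with medians of 0.39 and -0.01. The knockdown response was the larger in size in 4449 of the 4756 genes (93.5%). Another 177 differing genes were lower in both experiments, of which 167 fell further after knockdown, with medians over the 177 of -0.71 and -0.33. Of all 519 genes lower in both, the inhibitor response was 0.79 of the knockdown response at the median, with quartiles of 0.59 and 1.03. Only 39 differing genes were higher in both, 37 of them more so after knockdown, and the 39 became 25 without Vehicle replicate 2 or MKC8866 replicate 4.

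Both responses were called and opposite in 83 genes. Knockdown lowered and MKC8866 raised 69 of them (medians -0.33 and 0.24), and the reverse held for 14 (medians 0.17 and -0.21). Without MKC8866 replicate 2, 150 genes were opposite, and without replicate 3 or 4 of that group 52 and 51 were. A further 52 differing genes were called higher and 44 lower with MKC8866 alone, 96 in all, against 168 without MKC8866 replicate 2, 63 without replicate 4 of that group and 55 without Vehicle replicate 2. The inhibitor response was called and larger in size than the knockdown response in 140 genes, 78 of them higher and 62 lower with MKC8866. The 78 became 147 without MKC8866 replicate 2 and 51 without Vehicle replicate 2. In 254 genes the difference was called although neither response was.

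**Figure D1:**
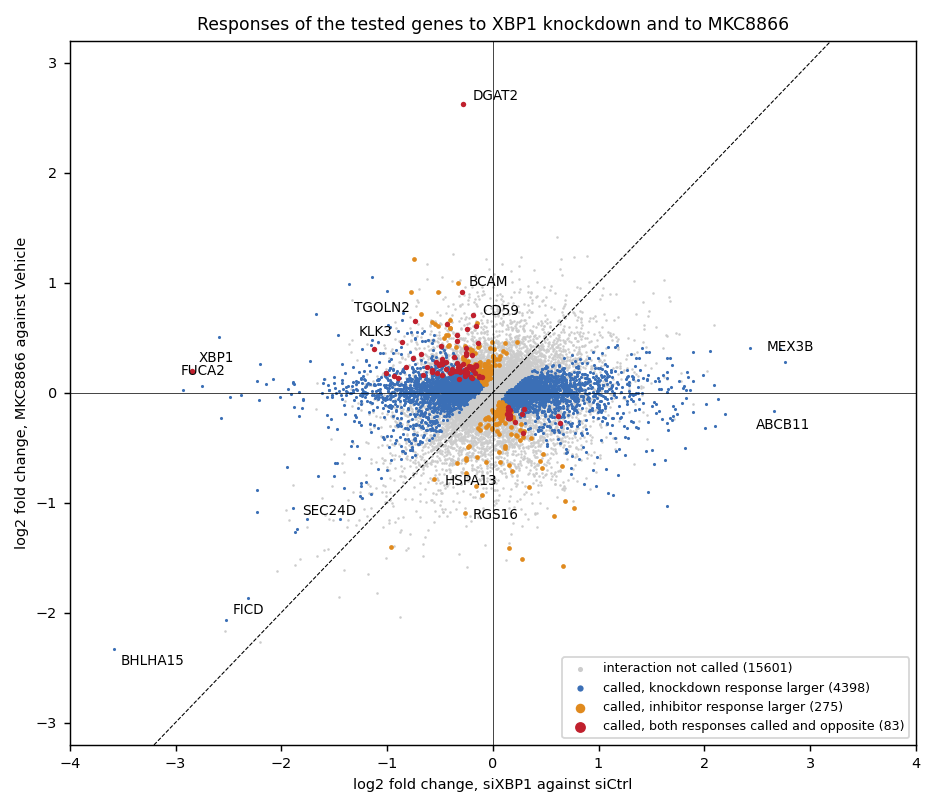
Log2 fold change of each of the 20357 tested genes after XBP1 knockdown (horizontal axis) and with MKC8866 (vertical axis), where the dashed line marks equal responses and colours mark the called differences. Most coloured points spread along the horizontal axis, DGAT2 stands apart at 2.63 with MKC8866, and FICD, SEC24D and BHLHA15 lie in the lower left, where both responses are negative.

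Most genes of protein entry into the ER fell in both experiments, and those with a called difference fell further after knockdown. Of 13 tested members of the SEC61 translocon, the TRAP complex and SERP1, which form or attend the channel that takes nascent proteins into the ER, 11 fell after knockdown and 10 with MKC8866. The difference was called in 7 (53.8%), all negative, with a list median of -0.24, from -0.76 after knockdown and -0.41 with MKC8866. TRAM1, a translocon-associated membrane protein, was counted at 226, 214, 222 and 235 CPM in siCtrl, 103, 105, 109 and 106 in siXBP1, 207, 234, 219 and 226 in Vehicle and 171, 186, 171 and 180.2 in MKC8866 libraries. In both experiments its treated values lay below all of its control values, and the knockdown response of -1.09 exceeded the inhibitor response of -0.32 by -0.76 ± 0.0586 (SE, adjusted p = 2.71e-12). SERP1, also known as RAMP4, had responses of -1.50 after knockdown and -0.75 with MKC8866, and the TRAP subunit SSR3 of -1.27 after knockdown and -0.59 with MKC8866. SSR2 had -1.26 and -0.94 and SEC61B -0.73 and -0.41, with called differences of the same size, -0.32 for each. TRAM2 and SEC61A2, paralogs of listed members, had no called difference, nor had SSR1, SSR4, SEC61G and SEC62.

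The signal recognition particle and its receptor, which bring ribosomes to the translocon, gave 3 negative calls among 8 tested genes. The share of 37.5% was near the 36.0% of well expressed genes, and the medians were -0.48 after knockdown and -0.31 with MKC8866. The receptor subunit SRPRB read 114, 109, 115 and 117 CPM in siCtrl, 58.4, 67.4, 63.8 and 66.96 in siXBP1, 124, 126, 129 and 131 in Vehicle and 91.3, 94.4, 95.02 and 98.9 in MKC8866 libraries, a difference of -0.40 ± 0.0621 (SE, adjusted p = 6.04e-06). SRP72 and SRP68 had differences of -0.31 and -0.22. The signal peptidases gave 1 call in 9 genes (11.1%), SPPL3, at -0.31 ± 0.0863 (SE, adjusted p = 0.00827). A positive call was added without siCtrl replicate 3 or 4, siXBP1 replicate 1 or Vehicle replicate 1, and 2 such calls without MKC8866 replicate 2.

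N-glycosylation enzymes were mixed in their responses. Of 34 genes of the oligosaccharyltransferase and of lipid-linked oligosaccharide synthesis, 24 fell and 4 rose after knockdown, 15 fell with MKC8866, and 10 had a negative and 2 a positive called difference (35.3%, near the 36.0% of well expressed genes). The 4 raised genes became 2 without siCtrl replicate 3, siXBP1 replicate 2 or siXBP1 replicate 4 and 1 without siXBP1 replicate 3, and the 2 positive differences became 1 without siCtrl replicate 2, siXBP1 replicate 4, Vehicle replicate 1, 3 or 4, or MKC8866 replicate 1, 2 or 4. STT3A, a catalytic subunit, read 343, 347, 349.8 and 356 CPM in siCtrl, 207, 204, 208 and 209 in siXBP1, 333, 335, 339 and 332 in Vehicle and 243, 253, 266 and 272 in MKC8866 libraries, and the treated libraries lay below their controls in both experiments. Its difference was -0.38 ± 0.0515 (SE, adjusted p = 6.89e-07). MAGT1 (-0.87 and -0.49 after knockdown and with MKC8866) and RPN2 (-0.41 and -0.16) fell in both, whereas the mannosyltransferase ALG9 (-0.35 and 0.11) and the glucosyltransferase ALG6 (-0.47 and -0.05) were called after knockdown alone.

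The supply of sugar donors followed the same order. The list of the hexosamine pathway and nucleotide-sugar transporters held 27 tested genes, with 10 negative and 2 positive calls (44.4%) and medians of -0.30 after knockdown and -0.12 with MKC8866. Without Vehicle replicate 2 the positive calls numbered 1. UAP1, which makes UDP-N-acetylglucosamine, was at 235, 233, 239 and 247 CPM in siCtrl, 112, 129, 128 and 124 in siXBP1, 209, 223, 219.5 and 216 in Vehicle and 199, 203, 198 and 199.9 in MKC8866 libraries. It fell by 0.95 on the log2 scale after knockdown, while the response to MKC8866 was not called (-0.12, adjusted p = 0.0974). The difference was -0.83 ± 0.0569 (SE, adjusted p = 1.42e-13). The transporters SLC35B4 (-0.65 and -0.03) and SLC35A2 (-0.63 and -0.15) were likewise called after knockdown alone, and the acetyl-CoA transporter SLC33A1 fell strongly in both (-1.25 and -0.85).

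Vesicle transport between the ER and the Golgi differed in the same direction. Of 19 COPII coat genes, which build the vesicles that leave the ER, 9 had a negative and 1 a positive called difference (52.6%). SEC24D, the cargo-binding coat subunit that responded most, read 192, 187, 193 and 192 CPM in siCtrl, 54.2, 49.2, 53.3 and 49.2 in siXBP1, 189, 188, 180.4 and 183 in Vehicle and 91.6, 89.3, 88.3 and 88.3 in MKC8866 libraries. All treated values lay below all control values in both experiments, and the responses of -1.89 after knockdown and -1.05 with MKC8866 gave a difference of -0.84 ± 0.0558 (SE, adjusted p = 6.22e-14). SEC31A (-0.63 and -0.22), SEC23B (-0.74 and -0.42) and SEC24A (-0.64 and -0.26) fell in both experiments with smaller differences, as did SEC24C (-0.80 and -0.26).

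Among COPI coatomer and Golgi genes, which serve retrieval to the ER and Golgi structure, 20 of 34 tested members had a negative and 1 a positive called difference (61.8%, list median -0.18), the latter 2 without MKC8866 replicate 2. The list medians were -0.49 after knockdown, with 27 members called lower, and -0.28 with MKC8866, with 23 called lower. COPA (ENSG00000122218, chr1:160289273-160343400, minus strand), the coatomer alpha subunit, was counted at 301, 308, 301 and 301 CPM in siCtrl, 137, 135, 136 and 133 in siXBP1, 287, 281, 289.5 and 284 in Vehicle and 227, 229, 234 and 246 in MKC8866 libraries. Groups did not overlap within either experiment, and the difference was -0.88 ± 0.0497 (SE, adjusted p = 1.31e-15). BET1, a SNARE of ER to Golgi fusion, had responses of -1.65 after knockdown and -0.75 with MKC8866. GOLT1B (-1.29 and -0.48), COPG1 (-0.75 and -0.32) and GOLPH3L (-1.20 and -0.82) fell in both.

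Cargo receptors gave 10 negative and 1 positive calls in 29 genes (37.9%, near the 36.0% of well expressed genes). The negative calls numbered 6 without siXBP1 replicate 4 or Vehicle replicate 4. The positive call was lost without siCtrl replicate 1, 2 or 4, siXBP1 replicate 2, 3 or 4, Vehicle replicate 1 or 3, or MKC8866 replicate 1. KDELR2, which returns ER residents from the Golgi, read 219.9, 196, 219.7 and 215 CPM in siCtrl, 98.2, 102, 111 and 102 in siXBP1, 216, 239, 234 and 234 in Vehicle and 165, 187, 173 and 172 in MKC8866 libraries, a difference of -0.64 ± 0.0651 (SE, adjusted p = 2.06e-09). TMED10 (-0.81 and -0.32), LMAN1 (-0.98 and -0.50) and TMED9 (-0.69 and -0.47) fell in both. YIF1A was an exception, lower after knockdown (-0.24) and higher with MKC8866 (0.17).

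The list of ATF6, its proteases and the CREB3 family, which also holds BHLHA15 and WFS1, had 4 negative calls in 9 tested genes (44.4%). These were BHLHA15, CREB3L2, CREB3L4 and WFS1, and neither ATF6 nor a protease was among them. BHLHA15, known as MIST1, a transcription factor of secretory cells and a known XBP1 target, was counted at 28.5, 36.1, 30.1 and 28.7 CPM in siCtrl, 2.11, 2.41, 2.85 and 2.89 in siXBP1, 33.5, 30.01, 30.3 and 32.2 in Vehicle and 6.22, 5.15, 6.91 and 6.68 in MKC8866 libraries. It had responses of -3.58 after knockdown and -2.33 with MKC8866, the lowest log2 fold change of the 220 named genes in each experiment, and its difference was -1.25 ± 0.141 (SE, adjusted p = 2.07e-08). CREB3L2 (-1.41 and -0.87), a transcription factor of the CREB3 family, and WFS1 (-1.15 and -0.92), an ER membrane protein, fell in both, and CREB3L4 after knockdown alone (-0.60 and -0.14).

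Promoters are shown for genes of this shared lower group, since the motifs that XBP1s is known to bind can be read in them. RefSeq windows (GRCh38.p14) of 250 bases before to 50 bases after the start were matched by symbol for 12438 of the tested genes. The UPR element TGACGTGG, on either strand, was in 0.909% of these promoters, in 5.39% of the 408 promoters of genes lower in both experiments, and in 8.39% of the 155 among them with a called difference. It was in 0.724% of 1658 promoters of differing genes called lower after knockdown alone, in 0.417% of 1439 called higher after knockdown alone, and in 2.86% of 105 with a called and larger inhibitor response. The ER stress element, CCAAT and CCACG with 9 bases between them, was in 17 of all 12438 promoters (0.137%). It was in 6 of 408 promoters of genes lower in both (1.47%) and in 2 of 64 of differing genes with opposite responses (3.12%). CRELD2 and ALG12, both among the 6, hold the same site. Among differing genes it was in 0 of 1658 called lower and in 3 of 1439 called higher after knockdown alone. It was in 1 of 105 with a called and larger inhibitor response. The core ACGTG, which is part of the UPR element, was in 26.1% of all and in 48.0% of the genes lower in both. In a shorter window, the 150 bases before the start, the ER stress element was in 3 of the 408 (0.735%) and in 0.0884% of all promoters. There the UPR element was in 2.7% of the 408 and in 0.498% of all. These are matches of letters within the windows and were not tested. Examples follow, with the motif letters in capitals, first of the ER stress element in SERP1, FICD, CRELD2 and ERO1B and then of the UPR element in SEC24A, DNAJC10, NANS and GOLGA5.
SERP1 (chr3:150546710-150546728, plus strand): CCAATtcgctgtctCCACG
FICD (chr12:108515123-108515141, plus strand): CCAATgggagtggcCCACG
CRELD2 (chr22:49918554-49918572, minus strand): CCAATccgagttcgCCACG
ERO1B (chr1:236282183-236282201, plus strand): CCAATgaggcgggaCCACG
SEC24A (chr5:134648595-134648624, plus strand): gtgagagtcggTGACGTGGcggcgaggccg
DNAJC10 (chr2:182716121-182716150, minus strand): taggtttaggtTGACGTGGcggtgtgcgcg
NANS (chr9:98056680-98056709, plus strand): cgaccgcgggcTGACGTGGcggggctggcg
GOLGA5 (chr14:92794115-92794144, minus strand): ctgcgtgcgtgTGACGTGGctcgccgccgg
SERP1 and FICD fell further after knockdown, CRELD2 fell further with MKC8866 (-0.25 and -0.60), and for ERO1B the difference was not called (adjusted p = 0.94). GOLGA5, a Golgi structural protein, had responses of -0.57 and -0.33. The first 4 of these genes were chosen from the 6 genes lower in both that hold the ER stress element. TRIM5 (-0.37 and -0.32) and ALG12 (-0.21 and -0.19) hold it too, are not shown and had no called difference. The last 4 were chosen from 13 promoters with the UPR element among genes lower in both with a called difference. Not all of those genes fell further after knockdown, as VCP had -0.12 and -0.28. All choices were made after the values were seen.

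ER chaperones split into genes that fell further after knockdown and genes that were lower with MKC8866 than after knockdown. Of 25 tested genes for BiP, its co-chaperones and other lumenal chaperones, 5 had a negative and 7 a positive called difference (48%), and the list median was 0.03. In 4 of the called members the inhibitor response was the larger. SIL1, a nucleotide exchange factor of BiP, read 107, 120.1, 107 and 119.8 CPM in siCtrl, 74.8, 75.3, 76.2 and 75.6 in siXBP1, 106, 104, 105 and 105 in Vehicle and 104, 104, 111 and 120.4 in MKC8866 libraries. It fell after knockdown alone (-0.59 against 0.06), a difference of -0.65 ± 0.0664 (SE, adjusted p = 2.01e-09). FICD, which modifies BiP by AMPylation, had responses of -2.52 after knockdown and -2.06 with MKC8866, with a difference of -0.46 ± 0.0673 (SE, adjusted p = 2.36e-06). MESD (-0.84 and -0.37) and DNAJC10 (-0.74 and -0.38) fell further after knockdown.

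HSPA5, the gene of BiP (ENSG00000044574, chr9:125234853-125241330, minus strand), went the other way. It was at 3924, 3531, 3966 and 3894 CPM in siCtrl, 4594, 4593, 5093 and 4556 in siXBP1, 3778, 3819.9, 3849 and 3768 in Vehicle and 3367, 3470.5, 3549.8 and 3328 in MKC8866 libraries. All siXBP1 values lay above all siCtrl values, and all MKC8866 values below all Vehicle values. HSPA5 rose by 0.30 on the log2 scale after knockdown and fell by 0.15 with MKC8866, a difference of 0.45 ± 0.0569 (SE, adjusted p = 1.87e-07). The other members with a positive difference were HSP90B1 (0.27 and 0.01), the GRP94 chaperone, SDF2L1 (-0.23 and -0.49), DNAJB11 (0.05 and -0.21), CRELD2 (-0.25 and -0.60), MANF (0.15 and -0.23) and CLGN (0.38 and 0.05), named here after their values were seen as they complete the count of 7.

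**Figure D2:**
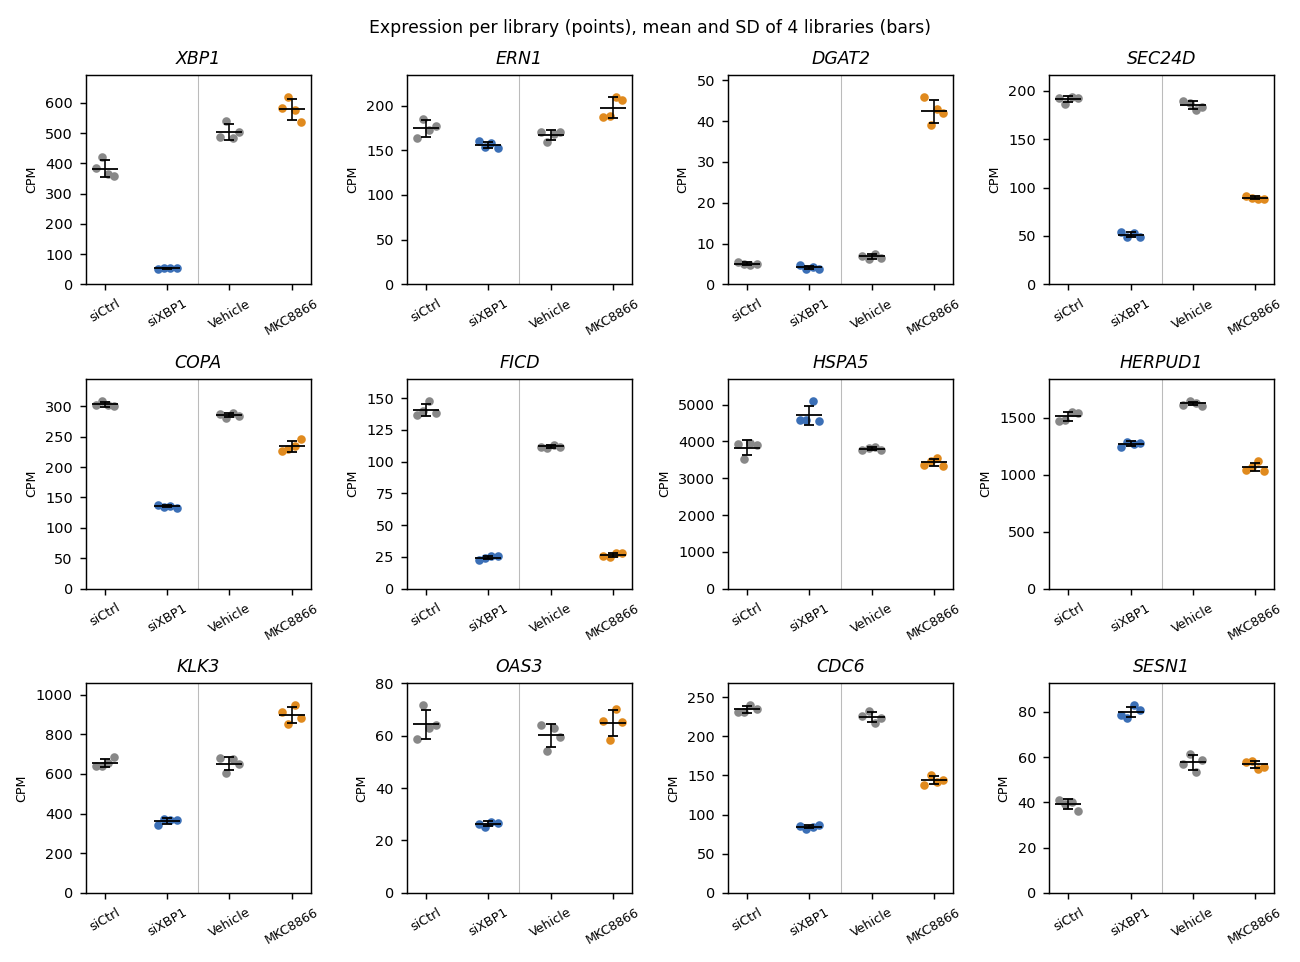
CPM of 12 genes in each library of the 4 groups (points), with the mean and SD of 4 libraries (bars), on axes that start at 0. HSPA5 is higher in siXBP1 than in siCtrl and lower in MKC8866 than in Vehicle libraries, DGAT2 is high in the MKC8866 libraries, and FICD is low in both treated groups.

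Disulfide isomerases, ERO1 oxidases and ER prolyl isomerases had 11 negative and 4 positive calls in 31 tested genes (48.4%), with medians of -0.32 after knockdown and -0.20 with MKC8866. TMX3, a transmembrane thioredoxin-related protein, read 67.6, 63.99, 64.3 and 66.3 CPM in siCtrl, 33.9, 36.9, 36.8 and 35.02 in siXBP1, 60.4, 67.4, 60.9 and 62.7 in Vehicle and 57.6, 66.7, 62.3 and 64.8 in MKC8866 libraries. The siXBP1 values lay below all others, with a difference of -0.88 ± 0.0695 (SE, adjusted p = 5.51e-12). TXNDC15 (-1.15 and -0.36) and P4HB (-0.57 and -0.25), the founding disulfide isomerase, fell in both, and ERO1A (-0.80 and -0.14), the oxidase, was called after knockdown alone. PDIA4 was opposite, at 0.17 after knockdown and -0.23 with MKC8866, a difference of 0.39 ± 0.0503 (SE, adjusted p = 2.29e-07).

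ER-associated degradation, the disposal of misfolded ER proteins, gave 7 negative and 8 positive calls in 43 tested genes (34.9%), near the share of well expressed genes. The first by adjusted p was UBE2G2, a ubiquitin-conjugating enzyme of this pathway, at 67.3, 65.6, 64.3 and 57.7 CPM in siCtrl, 131, 140.1, 120.1 and 133 in siXBP1, 113, 121, 109 and 114 in Vehicle and 111, 115, 108 and 113 in MKC8866 libraries. It rose after knockdown by 1.04 and had -0.03 with MKC8866, a difference of 1.07 ± 0.0682 (SE, adjusted p = 2.27e-14), and its siCtrl values lay below all Vehicle values. UBAC2 (-0.83 and -0.09), ERLIN2 (-0.56 and 0.03) and UBE2K (-0.56 and 0.03) fell after knockdown alone. HERPUD1, which organises the degradation complex, fell in both and further with MKC8866 (-0.25 and -0.61, difference 0.36 ± 0.0492 (SE, adjusted p = 8.62e-07)).

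Reported RIDD substrates were the list with the most positive inhibitor median, 0.23, against 0.00 after knockdown. Of 13 tested members 3 had a called difference, all negative (23.1%, as in all genes), and the remaining 10 had none, although only 6 of the 13 reach 10 CPM. The 3 became 5 without siXBP1 replicate 3 or MKC8866 replicate 4. The response to MKC8866 alone was called higher in 4 of the 13 and lower in 0. DGAT2, the last enzyme of triglyceride synthesis (ENSG00000062282, chr11:75759512-75801535, plus strand), was counted at 5.56, 4.97, 4.75 and 5.07 CPM in the siCtrl libraries and 4.80, 3.88, 4.24 and 3.89 CPM in the siXBP1 libraries. It was counted at 7.02, 6.32, 7.54 and 6.55 CPM in the Vehicle libraries and 45.9, 38.99, 42.95 and 41.9 CPM in the MKC8866 libraries. All MKC8866 values lay far above all Vehicle values, while the siCtrl and siXBP1 values overlapped in range. The responses were -0.28 after knockdown and 2.63 with MKC8866, and the difference was -2.91 ± 0.121 (SE, adjusted p = 5.04e-19). TGOLN2, the trans-Golgi network protein TGN46, fell by 0.74 after knockdown and rose by 0.65 with MKC8866, and CD59, a membrane inhibitor of complement, fell by 0.18 and rose by 0.70. The difference was -1.39 ± 0.0601 (SE, adjusted p = 1.15e-18) for TGOLN2 and -0.89 ± 0.0694 (SE, adjusted p = 4.27e-12) for CD59. BLOC1S1, the substrate used most often as a reporter of RIDD, had responses of -0.05 and 0.66 with no called difference, and PDGFRB, SPARC, ITGB2 and PMP22 had positive uncalled differences.

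Genes of the PERK arm responded to knockdown in both directions and scarcely to the inhibitor. Of 42 tested eIF2α kinases and ATF4 and CHOP targets, 8 had a negative and 15 a positive called difference (54.8%, median 0.10), with 19 genes raised and 10 lowered after knockdown but 1 raised and 3 lowered with MKC8866. That 1 became 2 without Vehicle replicate 1 or MKC8866 replicate 2. MTHFD2, a mitochondrial folate enzyme, was at 253, 261, 269 and 270.3 CPM in siCtrl, 124, 126, 127 and 135 in siXBP1, 246, 256, 249 and 251 in Vehicle and 233, 242, 244 and 241 in MKC8866 libraries, a difference of -0.98 ± 0.0521 (SE, adjusted p = 2.45e-16). The amino acid transporter SLC1A4 was opposite in the 2 experiments (-0.75 after knockdown and 0.31 with MKC8866), and SLC38A2 fell after knockdown alone (-0.46 and 0.03). DDIT3, the gene of CHOP, rose after knockdown (0.46) with an uncalled -0.09 with MKC8866, a difference of 0.55 ± 0.0569 (SE, adjusted p = 2.78e-09). EIF2AK2, the RNA-activated kinase PKR, fell after knockdown (-0.72 and 0.04). Cytosolic aminoacyl-tRNA synthetases had 2 negative and 4 positive calls in 23 genes (26.1%), led by FARSA (-0.74 and -0.002) and LARS1 (-0.42 and 0.02).

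Lipid genes differed mainly through falls after knockdown. In fatty acid and triglyceride synthesis and storage, 13 of 38 tested genes had a negative and 5 a positive called difference (47.4%, median -0.14). Apart from DGAT2, LPIN2 (-0.45 and 0.07), GPAM (-0.32 and 0.08), ACLY (-0.31 and 0.07) and FASN (-0.45 and 0.14) fell after knockdown and had no called response to MKC8866. LPIN2 and GPAM act in triglyceride synthesis, ACLY makes cytosolic acetyl-CoA and FASN makes fatty acids. Cholesterol synthesis and uptake genes had 6 negative and 5 positive calls in 27 (40.7%, against 36.0% of well expressed genes). The 5 became 3 without any one of siCtrl replicates 2 and 3, siXBP1 replicates 2 and 3, Vehicle replicates 2 and 4 and MKC8866 replicates 1 and 3. DHCR7 (-0.26 and 0.04) and EBP (-0.42 and -0.11) fell after knockdown, SC5D rose (0.23 and -0.01), and HSD17B7 was opposite (0.16 and -0.20).

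**Figure D3:**
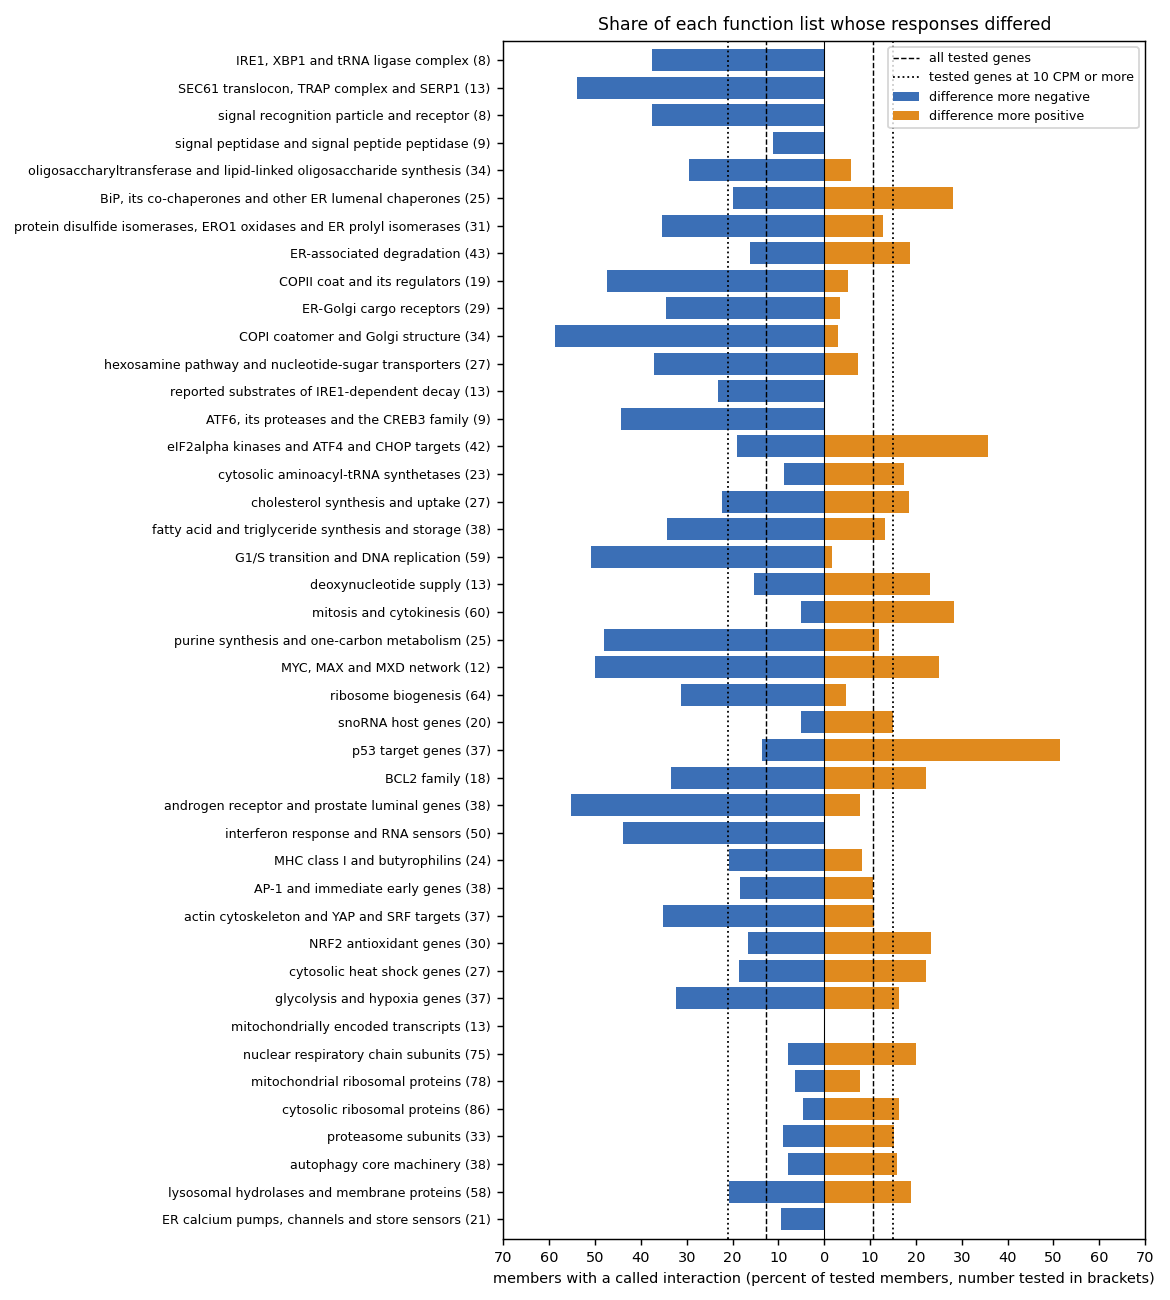
Percent of the tested members of each of the 43 lists with a called difference, negative to the left and positive to the right, beside the share over all tested genes (dashed lines, 12.8 and 10.6) and over genes with at least 10 CPM (dotted lines). The COPI and Golgi, androgen receptor, translocon and DNA replication lists reach farthest to the left, and p53 targets farthest to the right.

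DNA replication genes were mostly lower after knockdown, with 34 called lower and 4 higher, against 3 and 5 with MKC8866. The 4 became 2 without siCtrl replicate 1 or siXBP1 replicate 4, and the 5 became 3 without Vehicle replicate 2 or MKC8866 replicate 3. The list of the G1/S transition and DNA replication held 59 tested genes, with 30 negative and 1 positive calls (52.5%) and medians of -0.17 after knockdown and 0.01 with MKC8866. CDC6, which loads the MCM helicase onto origins (ENSG00000094804, chr17:40287633-40304657, plus strand), was counted at 231, 231, 239 and 235 CPM in siCtrl, 85.6, 82.1, 83.9 and 86.9 in siXBP1, 225, 232, 217 and 224 in Vehicle and 138, 150.2, 142 and 145 in MKC8866 libraries. It was an exception in falling in both experiments, with responses of -1.47 after knockdown and -0.64 with MKC8866 and a difference of -0.82 ± 0.053 (SE, adjusted p = 2.99e-14). The flap endonuclease FEN1 also fell in both (-1.27 and -0.27). GINS1 (-0.93 and 0.03) and MCM5 (-0.52 and 0.08) of the replicative helicase and the chromatin assembly factor CHAF1B (-0.57 and 0.06) fell after knockdown alone.

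Mitotic genes had the opposite balance. Of 60 genes of mitosis and cytokinesis, all with at least 10 CPM, 17 had a positive and 3 a negative called difference. The share of 33.3% was below the 36.0% of well expressed genes, so the list stood out by direction alone. Among those 10259 well expressed genes the called differences were negative in 2152 and positive in 1546. After knockdown 26 of the 60 rose and 5 fell. With MKC8866 edgeR called 0 of the 60, with 6 at an unadjusted p under 0.05 and 1 called by DESeq2, 0 by limma voom and 1 by edgeR without MKC8866 replicate 2. The first by adjusted p was one of the few that fell, ANLN, the actin scaffold of the cleavage furrow, at 130.1, 123, 126 and 126 CPM in siCtrl, 49.9, 49.2, 52.8 and 50.4 in siXBP1, 115, 113, 111 and 118 in Vehicle and 123, 123, 119.8 and 121 in MKC8866 libraries, a difference of -1.41 ± 0.0546 (SE, adjusted p = 5.70e-20). CENPE, a kinetochore motor, fell too (-0.55). Cyclin B1 (CCNB1, 0.49), TOP2A (0.41) and the condensin subunit SMC4 (0.42) rose after knockdown, and for each of these the siCtrl values lay below all Vehicle values.

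Nucleotide supply was split by gene. Of 13 deoxynucleotide genes 2 had a negative and 3 a positive called difference (38.5%, near the 36.0% of well expressed genes). RRM2, the ribonucleotide reductase subunit of dividing cells, was at 259, 286, 278 and 286 CPM in siCtrl, 98.4, 110.0, 101 and 115 in siXBP1, 249, 269.8, 262 and 276 in Vehicle and 245, 263, 261 and 271 in MKC8866 libraries, and it fell after knockdown alone, with a difference of -1.36 ± 0.0651 (SE, adjusted p = 1.62e-17). CMPK1 fell likewise (-0.90 and -0.05), and the p53-inducible RRM2B rose (0.27 and -0.02). Purine synthesis and one-carbon genes had 12 negative and 3 positive calls in 25 (60%, median -0.15). Besides MTHFD2, whose values are given above, MTRR (-0.57 and 0.04), MTHFD1 (-0.40 and -0.01) and PPAT (-0.60 and -0.13), the first enzyme of purine synthesis, fell after knockdown alone, and the glycine cleavage enzyme GLDC rose (0.52 and -0.07).

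MYC itself (on chromosome 8) differed in response. It was counted at 79.96, 85.8, 81.5 and 84.6 CPM in siCtrl, 62.8, 57.98, 53.8 and 60.4 in siXBP1, 72.3, 61.02, 66.2 and 67.1 in Vehicle and 78.01, 69.3, 73.1 and 76.6 in MKC8866 libraries. The siXBP1 values lay below all siCtrl values, the MKC8866 values overlapped the Vehicle values, and the siCtrl values were above all Vehicle values. The log2 fold change was -0.50 after knockdown (adjusted p = 9.99e-10) and 0.16 ± 0.0514 with MKC8866 (adjusted p = 0.0824), a difference of -0.65 ± 0.0727 (SE, adjusted p = 1.28e-08). Of 12 tested genes of the MYC, MAX and MXD network 6 had a negative and 3 a positive called difference (75%), among them MGA (-0.29 and 0.07) and MXD4 (-0.21 and 0.07), which fell after knockdown, and MLXIPL (0.66 and -0.08) and MXI1 (0.33 and -0.03), which rose.

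Ribosome biogenesis, a function known to depend on MYC, had 20 negative and 3 positive calls in 64 tested genes (35.9%, near that of well expressed genes in total but weighted to one side), with medians of -0.14 after knockdown and -0.01 with MKC8866. Its first gene by adjusted p was one of the 3 with a positive difference, HEATR1, at 37.6, 39.2, 36.1 and 34.6 CPM in siCtrl, 60.1, 59.7, 61.6 and 59.3 in siXBP1, 67.1, 68.4, 66.7 and 67.1 in Vehicle and 64.6, 67.2, 64.6 and 69.6 in MKC8866 libraries, a difference of 0.72 ± 0.0626 (SE, adjusted p = 4.83e-11). Its siXBP1 values stood nearer to the Vehicle and MKC8866 values than its siCtrl values did. The RNA polymerase I subunits POLR1B (-0.73 and 0.05) and POLR1E (-0.50 and -0.05) and RRP1B (-0.25 and 0.09) fell after knockdown alone. The snoRNA host genes had 1 negative and 3 positive calls in 20 (20.0%), the former 2 without siXBP1 replicate 1 or 2. Cytosolic ribosomal proteins had 4 and 14 in 86 (20.9%) with a median of 0.11, and mitochondrial ribosomal proteins 5 and 6 in 78 (14.1%). Ribosomal protein genes have near-identical pseudogenes, and fragments that map to several places were not counted, so their values are uncertain.

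Targets of p53 formed the list with the highest share of positive differences. Of 37 tested members 19 had a positive and 5 a negative called difference (64.9%, median 0.23). After knockdown 28 rose and 6 fell, and with MKC8866 3 rose and 1 fell (2 without MKC8866 replicate 2). SESN1, a stress-inducible regulator of growth signalling (ENSG00000080546, chr6:108986437-109094819, minus strand), was at 41.2, 39.4, 40.3 and 36.3 CPM in siCtrl, 78.7, 77.3, 82.8 and 80.8 in siXBP1, 57.03, 61.5, 53.5 and 58.8 in Vehicle and 58.02, 58.3, 54.7 and 55.8 in MKC8866 libraries. The siXBP1 values were above all other values, the siCtrl values were below all Vehicle values, and the difference was 1.05 ± 0.0679 (SE, adjusted p = 3.69e-14). DDB2 (0.80 and 0.08), a DNA damage recognition protein, and the apoptosis effector BAX (0.52 and -0.03) rose after knockdown alone, while the ceramidase ACER2 (-0.997 and 0.13) fell after knockdown and the exonuclease AEN (-0.64 and -0.18) in both.

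The BCL2 family had 6 negative and 4 positive calls in 18 tested genes (55.6%). BNIP3L, a mitophagy receptor, read 117, 109, 117 and 118 CPM in siCtrl, 63.5, 64.3, 61.7 and 60.97 in siXBP1, 98.9, 105, 101 and 101 in Vehicle and 94.1, 106, 104 and 104 in MKC8866 libraries and had a difference of -0.89 ± 0.0604 (SE, adjusted p = 1.33e-13), and its relative BNIP3 had -0.65 and -0.03. The proapoptotic BBC3 (PUMA) rose after knockdown (0.91 and 0.12, difference 0.78 ± 0.129 (SE, adjusted p = 1.70e-05)), and BCL2L2 fell (-0.39 and -0.07).

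Androgen receptor and prostate luminal genes had the most negative median difference of the 43 lists, -0.38. Of 38 tested members 21 had a negative and 3 a positive called difference (63.2%). After knockdown 23 fell and 4 rose, with a median of -0.29, and with MKC8866 1 fell and 5 rose, with a median of 0.07. KLK3, the gene of prostate-specific antigen (ENSG00000142515, chr19:50854915-50860764, plus strand), was counted at 641, 641, 657 and 683 CPM in the siCtrl libraries and 341, 371, 367 and 367 CPM in the siXBP1 libraries. It was counted at 679, 605, 677 and 648 CPM in the Vehicle libraries and 915, 853, 945 and 881 CPM in the MKC8866 libraries. The siXBP1 values lay below and the MKC8866 values above all of their controls, whose own ranges overlapped, and the responses of -0.86 after knockdown and 0.46 with MKC8866 gave a difference of -1.32 ± 0.0584 (SE, adjusted p = 2.01e-18).

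Other named luminal genes fell after knockdown with no called response to MKC8866. The androgen-induced protease TMPRSS2 had -0.89 and 0.07, the metalloreductase STEAP2 -0.87 and 0.07, and the prostate solute carrier SLC45A3 -1.20 and -0.01 after knockdown and with MKC8866 respectively. FOXA1, the pioneer factor that opens androgen receptor sites, was one of the 3 positive members, at 0.90 and 0.10, a difference of 0.80 ± 0.059 (SE, adjusted p = 1.04e-12). Its mean level was 357 ± 15.3 CPM (SD, n = 4) in siCtrl, 666 ± 38.84 in siXBP1, 542 ± 11.3 in Vehicle and 582 ± 26.1 in MKC8866 libraries, so the siCtrl libraries stood apart from the other 3 groups on the low side.

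**Figure D4:**
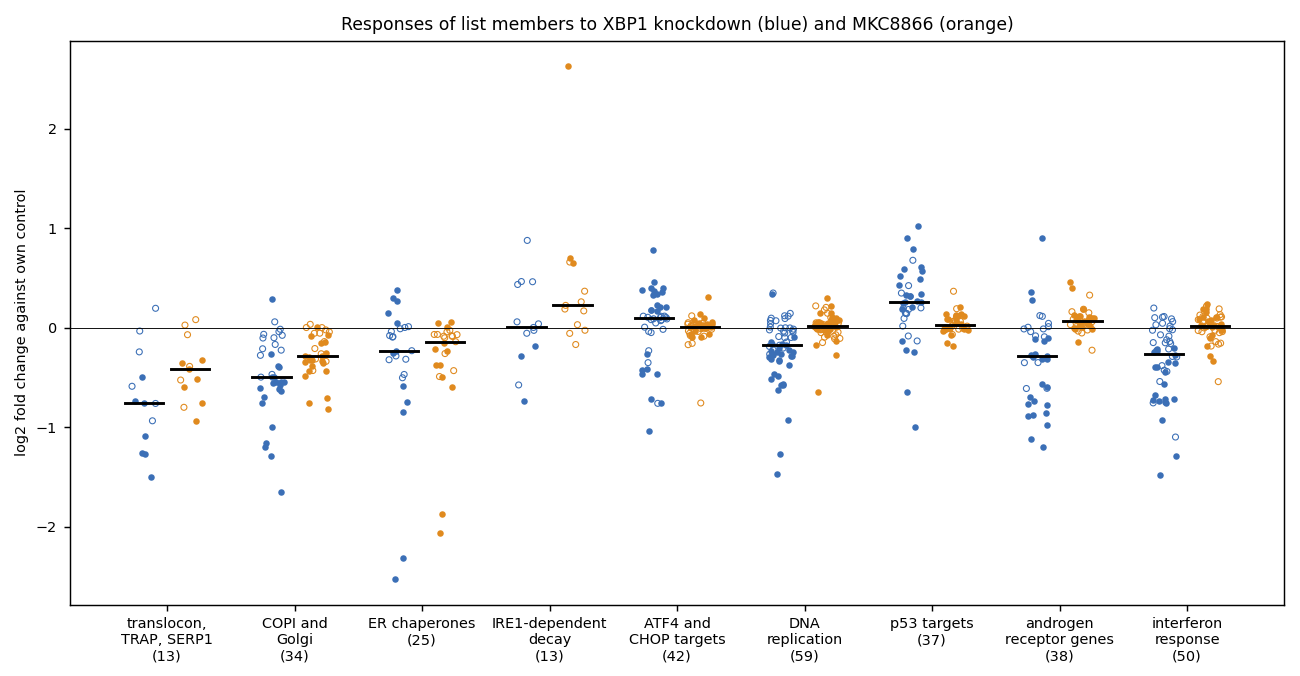
Log2 fold change of the members of 9 lists after XBP1 knockdown (blue) and with MKC8866 (orange), each against its own control, with filled points for called differences, a black line at each median and the number tested in brackets. Androgen receptor and interferon genes fall in blue with orange medians of 0.07 and 0.02, p53 targets rise in blue, and the translocon and Golgi lists lie below 0 in both colours.

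Interferon response genes and RNA sensors differed in one direction, with 22 called genes of 50 tested (44%, median -0.30), all of them negative, although only 24 of the 50 reach 10 CPM. By medians the responses were -0.26 after knockdown, with 27 genes called lower, and 0.02 with MKC8866, with 1 called lower (0 without Vehicle replicate 4) and 1 higher. OAS3, which makes 2′-5′ oligoadenylate on double-stranded RNA (ENSG00000111331, chr12:112938352-112973249, plus strand), read 58.5, 71.5, 62.8 and 64.1 CPM in siCtrl, 26.3, 24.9, 27.1 and 26.7 in siXBP1, 63.9, 54.3, 62.8 and 59.5 in Vehicle and 65.5, 58.3, 70.04 and 65.2 in MKC8866 libraries. The siXBP1 values were below all others, the other 3 groups overlapped in range, and the difference was -1.40 ± 0.085 (SE, adjusted p = 1.47e-14). The RNA sensor RIGI (-0.75 and 0.19), IFIT2 (-0.92 and -0.10), PARP9 (-0.35 and 0.03) and EIF2AK2, given above, fell after knockdown alone. MHC class I and butyrophilin genes had 5 negative and 2 positive calls in 24 (29.2%), led by the peptide transporter TAP2 (-1.04 ± 0.101 (SE, adjusted p = 6.06e-10)), and the positive calls numbered 4 without siCtrl replicate 3 and 1 without siXBP1 replicate 3.

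AP-1 and immediate early genes gave 7 negative and 4 positive calls in 38 (28.9%), with ATF3 (-0.42 and 0.10) and DUSP5 (-0.74 and 0.26) lower and BTG2 (0.61 and 0.21) higher after knockdown. Actin cytoskeleton and YAP and SRF target genes had 13 and 4 in 37 (45.9%), with medians of -0.06 after knockdown and 0.09 with MKC8866. CDC42EP3, an effector of CDC42, was at 33.5, 34.4, 32.7 and 36.2 CPM in siCtrl, 77.1, 79.6, 68.5 and 79.9 in siXBP1, 59.1, 58.7, 61.4 and 63.2 in Vehicle and 69.96, 69.2, 69.3 and 70.01 in MKC8866 libraries, rose in both experiments and differed by 0.96 ± 0.0683 (SE, adjusted p = 4.36e-13). The Hippo kinase LATS2 (-0.64 and 0.16) and the myosin MYH9 (-0.38 and 0.16) fell after knockdown alone.

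Among metabolic and stress lists, glycolysis and hypoxia genes had 12 negative and 6 positive calls in 37 tested genes (48.6%). KDM3A, a hypoxia-induced histone demethylase, read 81.00, 76.8, 79.5 and 77.6 CPM in siCtrl, 47.7, 42.97, 44.8 and 44.6 in siXBP1, 73.3, 73.8, 74.7 and 75.4 in Vehicle and 76.1, 71.7, 68.5 and 71.7 in MKC8866 libraries, with a difference of -0.76 ± 0.0611 (SE, adjusted p = 8.01e-12). NDRG1 (-0.56 and 0.11), PGAM1 (-0.56 and -0.07) and ENO1 (-0.42 and -0.04) fell after knockdown alone. NRF2 antioxidant genes had 5 and 7 in 30 (40%, against 36.0% of well expressed genes). The 5 became 3 without any one of siCtrl replicates 2 and 3, siXBP1 replicate 3, Vehicle replicates 2 and 4 and MKC8866 replicates 1 and 3. GCLM, a subunit of the enzyme that starts glutathione synthesis (0.21 and -0.09), and the autophagy receptor SQSTM1 (0.24 and 0.04) rose after knockdown.

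Cytosolic heat shock genes had 5 negative and 6 positive calls in 27 (40.7%, against 36.0% of well expressed genes). The co-chaperone DNAJA2 read 144, 135, 135 and 148 CPM in siCtrl, 61.8, 63.7, 68.3 and 66.5 in siXBP1, 135, 147, 141 and 145 in Vehicle and 139, 154, 137 and 143 in MKC8866 libraries, a difference of -1.12 ± 0.0636 (SE, adjusted p = 1.29e-15). HSP90AB1 fell (-0.46 and -0.02) and DNAJB1 (0.47 and -0.02) and CRYAB (0.59 and -0.11) rose after knockdown. Lysosomal genes had 12 and 11 in 58 (39.7%, against the same 36.0%). PPT1, which removes palmitate from proteins and whose loss causes a neuronal storage disease, was at 90.6, 88.6, 93.1 and 91.05 CPM in siCtrl, 19.3, 20.2, 18.7 and 19.1 in siXBP1, 86.1, 88.2, 87.9 and 87.8 in Vehicle and 92.4, 97.5, 93.5 and 93.9 in MKC8866 libraries, a difference of -2.34 ± 0.0585 (SE, adjusted p = 4.54e-25). SCARB2 (-1.23 and -0.01) and MAN2B1 (-0.79 and 0.07) fell after knockdown alone, and the cholesterol exporter NPC1 (-0.90 and 0.13) fell after knockdown and rose with MKC8866.

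The 13 mitochondrially encoded transcripts had a median difference of 0.28, the most positive list median. The edgeR test called 0 of them, with 0 at an unadjusted p under 0.05, and DESeq2 called 0 and limma voom 0. This median was 0.11 without siCtrl replicate 4, the library with the low mitochondrial share. Nuclear respiratory chain subunits had 6 negative and 15 positive calls in 75 (28%), and the 15 became 8 without siXBP1 replicate 3 and 9 without MKC8866 replicate 4. Proteasome subunits (3 and 5 in 33), autophagy genes (3 and 6 in 38) and ER calcium pumps, channels and sensors (2 and 0 in 21) were near or below the 23.4% over all genes. Their shares were all below the 36.0% of well expressed genes. The 5 positive proteasome calls became 1 to 3 without any one of siCtrl replicates 1, 2 and 3, siXBP1 replicates 2 and 3, Vehicle replicates 1, 3 and 4 and MKC8866 replicates 1 and 3. The 2 negative calcium calls became 4 without siCtrl replicate 1 or 4, siXBP1 replicate 3 or MKC8866 replicate 2, and 1 positive call was added without siCtrl replicate 2 or 4, siXBP1 replicate 1 or Vehicle replicate 2.

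The largest differences of single genes were mostly outside these functions. Among genes averaging 1 CPM or more in which the responses of the 4 siXBP1 and the 4 MKC8866 libraries did not overlap, the 10 largest positive differences were those of ABCB11 (2.83), the bile salt export pump, the RNA-binding protein gene MEX3B (2.48), CFAP107 (2.12), the long non-coding RNA CEDORA (2.02), the collagen COL16A1 (1.94), PNLIPRP3 (1.87), ZPLD1 (1.84), the ABC transporter ABCB5 (1.75), the transglutaminase TGM6 (1.74) and GNG5B (1.74). All 10 rose after knockdown, from means of 0.55 to 8.91 CPM in siCtrl libraries, and of these MEX3B alone had a called response to MKC8866 (0.28). For MEX3B, COL16A1, ZPLD1, ABCB5, TGM6 and GNG5B all siCtrl values lay below all Vehicle values, and for the others they overlapped.

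After XBP1 and DGAT2, the largest negative differences were those of the secreted fucosidase FUCA2 (-2.81), the sodium pump subunit ATP1B3 (-2.45), MIR621 (-2.36), PPT1 (-2.34), the kinase POMK (-2.20), the ER membrane protein EI24 (-2.14), the chemokine CCL2 (-2.02) and ZNF670 (-1.98). FUCA2 read 25.3, 28.6, 22.2 and 25.2 CPM in siCtrl, 3.38, 3.53, 4.30 and 3.86 in siXBP1, 26.7, 25.3, 25.6 and 26.4 in Vehicle and 26.5, 28.3, 27.4 and 26.3 in MKC8866 libraries. ATP1B3 read 144, 146, 125 and 136 CPM in siCtrl, 20.6, 25.01, 24.1 and 28.4 in siXBP1, 156, 153, 149.9 and 157 in Vehicle and 147, 152, 148 and 152 in MKC8866 libraries. For both, the siXBP1 values lay far below the other 3 groups, and the MKC8866 values overlapped the Vehicle values. None of these 8 had a called response to MKC8866. The MIR621 count is of long fragments over the gene and is no measure of the mature miRNA.

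Genes with called and opposite responses included, beside those above, the kinase PIM1 (0.63 after knockdown and -0.27 with MKC8866), the small GTPase RAB39B (0.62 and -0.21), the fucosyltransferase FUT3 (0.28 and -0.37), SEPTIN5 (0.21 and -0.27) and the lectin receptor CLEC7A (0.28 and -0.20), all with a positive difference. The transcription factor gene MAF had the reverse, -1.12 after knockdown and 0.40 with MKC8866, a difference of -1.52 ± 0.111 (SE, adjusted p = 8.71e-11). All siCtrl values lay below all Vehicle values for PIM1 and RAB39B and above them for MAF. For FUT3, SEPTIN5 and CLEC7A the values of the controls overlapped. Where the inhibitor response was the larger, BCAM, a laminin-binding adhesion molecule, was at 19.4, 22.2, 21.04 and 21.1 CPM in siCtrl, 18.7, 17.5, 14.4 and 17.6 in siXBP1, 23.5, 20.7, 24.5 and 23.1 in Vehicle and 44.7, 40.9, 42.4 and 45.4 in MKC8866 libraries. It had responses of -0.29 after knockdown and 0.92 with MKC8866, and the difference was -1.21 ± 0.0944 (SE, adjusted p = 3.87e-12). The Golgi manganese transporter TMEM165 (-0.43 and 0.62) and the protease ADAMTS15 (-0.14 and 0.64) also rose with MKC8866. On the lower side, RGS16 (-0.26 and -1.10) and the ER-associated HSP70 relative HSPA13 (-0.56 and -0.79, difference 0.23 ± 0.0682 (SE, adjusted p = 0.012)) were lower by more with MKC8866 than after knockdown, where RGS16 was not called. The inhibitor response was also called and the knockdown response not for the scarce SNORA11F, HYPK and the pseudogene COX7CP1, whose differences had edgeR adjusted p-values of 0.0476, 0.0416 and 0.0234, close to the threshold.

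Since the levels of both controls enter every difference, they were compared for the 220 named genes. Of the 70 with a positive difference, all siCtrl values lay below all Vehicle values in 35, above in 4 and overlapped in 31. Of the 150 with a negative difference, siCtrl lay above Vehicle in 50, below in 11 and overlapped in 89. These genes were chosen by their differences, into which a low siCtrl or a high Vehicle level enters as a positive part. Some imbalance of this kind therefore follows from the choice. The same counts were not taken over all tested genes, and the part of the controls in the differences was not tested. Exons of 58 of the 220 genes overlap another gene, among them SERP1, FEN1, TMEM165 and HYPK, and without strand in the counting, fragments of such a gene and an antisense partner cannot be told apart.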

How the data were processed

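RNA-seq was analysed for 16 LNCaP libraries, 4 in each of 4 groups set by the sample titles. Per the labels and the file headers, the authors made stranded libraries, sequenced both ends, aligned the reads to GRCh38 by STAR 2.5.2a and counted fragments with featureCounts 1.5.0-p3 on Ensembl 85. The deposited counts are not normalized and were made without regard to strand, leaving out multimapping fragments and fragments overlapping 2 genes.

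Here, genes exceeding 5 counts in 1 or more libraries of every group (20357 of 58051) were fitted in one edgeR 4.0.16 quasi-likelihood model (R 4.3.3) with a mean per group, TMM normalization and robust dispersion. Both responses and their difference were contrasts of this fit (two-sided, Benjamini-Hochberg adjusted p under 0.05). CPM use TMM library sizes. Data were simulated for the difference over 20020 genes with the same dispersion for every gene, and only genes with a mean of at least 100 counts were changed. Of these, 98 of 100 changed 1.5-fold and 61 of 100 changed 1.25-fold were called, with 7 false calls among unchanged genes. Recovery at lower counts was not examined.

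Genes were named by rule: XBP1 and ERN1, the 10 largest differences in each direction, the 5 largest opposite and the 5 largest inhibitor-led responses in each direction (adjusted p under 0.05, mean of at least 1 CPM, a symbol, and responses of the 8 treated libraries that do not overlap), and in each of 43 function lists up to 5 called members with the smallest adjusted p. Lists were described in full where the share called was at least 1.3 times that of all genes or the median lay at least 0.15 away. That bar lies below the 36.0% called among genes with at least 10 CPM. A list described in full, as 31 of the 43 were, need not exceed the share of well expressed genes. The question, genes and lists were chosen with earlier results of these data known. A few of the genes chosen are not reported here. Lists were given no test. Alternatives were DESeq2 1.42.0, other scalings and filters, limma voom 3.58.1, stricter thresholds, a replicate block, the linear CPM scale, a shorter promoter window of 150 bases, and leaving out each library.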

Additional observations from a re-analysis of the deposited data

Results flagged for a closer look

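By the test of the difference itself, 4756 genes responded unequally to siXBP1 and MKC8866, as described above. Single libraries were examined in 120 groups of 4 values by the gap of the extreme value to its neighbour, of which chance flags about 1 in 20, and 4 stood apart. These were ERN1 in Vehicle replicate 2 (159 CPM, low), COPA in siCtrl replicate 2 (308 CPM, high), KLK3 in siXBP1 replicate 1 (341 CPM, low) and the counted fragments of MKC8866 replicate 4 (34507788, high). Without the library named, the differences of ERN1, COPA and KLK3 were -0.38, -0.87 and -1.29, all called.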

How the results depend on the processing

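The difference kept its sign in all 220 named genes under each alternative that gave a value, the linear CPM scale included. DESeq2 called 4835 genes, DESeq2-style size factors 4736, total counts without TMM 4829, no filter on low counts 4596, a filter of at least 10 counts in every library 4810 and limma voom 4712, against 4756 as reported, and 4285 to 4718 of these were among the 4756. Of the named genes, SNORA11F lost its call under DESeq2 and without the filter, and SNHG12 without the filter. Differing genes higher in both experiments numbered 60 with DESeq2 and 62 with total counts, against 39. With total counts the median of glycolysis and hypoxia genes was -0.046, and with the stricter count filter those of cargo receptors, purine and one-carbon genes and androgen receptor genes were -0.085, -0.12 and -0.32. The cause was not tested.

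With a replicate block the difference was called in 5677 genes, including 4722 of the 4756, MKC8866 raised 545 genes, and differing genes numbered 88 higher in both, 193 opposite and 186 called with the inhibitor alone. Same-numbered libraries correlated in their deviations at 0.01 to 0.06 in the knockdown and 0.08 to 0.33 in the inhibitor experiment, where replicates 1, 2 and 4 were above 0.1 and correlated best with their own number but replicate 3 was not, so the number was not taken as a pairing.

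An adjusted p below 0.01 left 3163 differences, 1270 of them positive, and 140 genes raised by MKC8866, with 117 differing genes lower in both, 12 higher in both, 32 opposite, 41 called with the inhibitor alone and 134 with neither response called. A minimum of 1.5-fold left 1345 differences (736 negative and 609 positive), 958 genes lower and 885 higher after knockdown, and 142 lower and 12 higher with MKC8866. Of those differing genes 12 were lower in both, 0 higher in both, 1 opposite, 1041 called after knockdown alone and 14 with the inhibitor alone. These counts fall because the thresholds are stricter.

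Leaving out each library in turn gave 4325 to 4774 differences. Genes raised by MKC8866 ranged from 197 (without Vehicle replicate 2) to 502 (without MKC8866 replicate 2), differing genes higher in both from 25 to 46, opposite genes from 51 to 150, and genes called with the inhibitor alone from 55 to 168. The list medians that moved beyond the spread between libraries ranged from -0.086 to -0.016 for cargo receptors, -0.20 to -0.11 for fatty acid and triglyceride genes, -0.35 to -0.26 for interferon genes, -0.10 to -0.06 for glycolysis and hypoxia genes, and 0.11 to 0.39 for mitochondrially encoded transcripts, whose lowest value was without siCtrl replicate 4. Calls were lost in 48 fits of single named genes, all of SNORA11F, HYPK, COX7CP1, SNHG12, SEM1 or PSMD13.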
